A study of Mus musculus with 2 samples.

Results

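Collagens are the main structural proteins of the extracellular matrix, and their genes were examined here for CpG methylation in mouse myotubes with and without knockdown of the long non-coding RNA H19. The genes were the autosomal protein-coding genes of the GENCODE annotation whose symbol has the form Col, a number, the letter a and a number. There were 42 such genes among 20807 autosomal protein-coding genes. The rule reads symbols and no methylation value, but it was set with earlier results of these data known. For each gene, CpG cytosines read at least 5 times in siCon and in siH19, the 2 libraries described below, and outside the MspI (CCGG) and TaqI (TCGA) recognition sites were compared in a window of 1 kb on either side of the annotated transcription start site (TSS) and, separately, in the rest of the gene, called the body. The 42 genes held 4288 compared cytosines of 1850635 in the whole series.

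The cells were C3H mouse myoblasts from a commercial source, differentiated into myotubes in medium with 2% horse serum. They were transfected with control small interfering RNA (siCon) or with small interfering RNA against H19 (siH19), and genomic DNA was taken 48 h later. Methylation was read by reduced representation bisulfite sequencing, which samples the ends of short restriction fragments, with 1 library per group. The tests below therefore compare 2 libraries and not 2 conditions, and the knockdown cannot be told apart from any other difference between the cultures. DNA methylation reads carry no measure of H19 RNA or of muscle marker transcripts, so neither the knockdown nor the cell type was checked here. The paper reports reduced H19 RNA in siH19 myotubes by quantitative PCR, without stating that these were the same cultures. Summed over cytosines, the siCon library held 104999613 reads at 5453019 CpG cytosines and the siH19 library 106372792 at 5266846. Here and below, read counts over several cytosines are such sums, so a read that spans several CpGs counts at each. Within the collagen genes the median depth per compared cytosine was 23 reads in siCon and 22 in siH19.

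Each collagen is built of chains that wind around each other into a helix, and the family is sorted by what the helices assemble into. Fibrillar collagens (types I, II, III, V and XI among them) form the tensile fibrils of connective tissue. Type IV collagen forms the network of basement membranes, such as the sheet around every muscle fibre, and type VI forms beaded filaments that link cells to that sheet. Fibril-associated collagens (FACIT) sit on fibril surfaces, transmembrane collagens are anchored in the cell surface, and the multiplexins (types XV and XVIII) belong to basement membrane zones. Methylation of CpG-rich TSS regions is usually low, and that of gene bodies is usually high.

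The sequences that follow come from GRCm38 and are written 5′ to 3′ on the strand of the gene. For 7 genes with starts from unmethylated to methylated, they show the 120 bases with the most compared cytosines among the parts of the TSS window that hold no annotated exon. Exons were left out, so denser stretches of compared cytosines, such as those just after the TSS of Col4a2 and Col8a2, are not shown. Positions are in bases from the TSS, negative upstream. Capitals mark the CpGs that were compared.
Col5a1, chr2:27886211-27886330, -214 to -95 from the TSS: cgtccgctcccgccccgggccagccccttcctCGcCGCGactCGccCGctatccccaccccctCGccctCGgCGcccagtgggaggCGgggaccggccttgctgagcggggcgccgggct
Col4a2, chr8:11312368-11312487, -437 to -318: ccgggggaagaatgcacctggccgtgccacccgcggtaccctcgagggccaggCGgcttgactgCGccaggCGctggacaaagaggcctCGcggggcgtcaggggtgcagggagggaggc
Col2a1, chr15:98004759-98004878, minus strand, -183 to -64: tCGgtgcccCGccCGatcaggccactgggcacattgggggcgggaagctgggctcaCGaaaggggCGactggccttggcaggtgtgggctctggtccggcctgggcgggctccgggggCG
Col8a2, chr4:126287002-126287121, 209 to 328: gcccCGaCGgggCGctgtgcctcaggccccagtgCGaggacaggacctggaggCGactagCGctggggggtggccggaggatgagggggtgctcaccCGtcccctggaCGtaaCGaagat
Col11a2, chr17:34038611-34038730, -826 to -707: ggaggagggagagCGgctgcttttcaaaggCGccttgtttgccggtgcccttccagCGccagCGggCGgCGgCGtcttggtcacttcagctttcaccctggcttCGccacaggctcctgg
Col7a1, chr9:108953452-108953571, -134 to -15: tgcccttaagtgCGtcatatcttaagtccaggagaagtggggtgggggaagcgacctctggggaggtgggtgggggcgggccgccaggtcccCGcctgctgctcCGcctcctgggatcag
Col1a1, chr11:94936086-94936205, -138 to -19: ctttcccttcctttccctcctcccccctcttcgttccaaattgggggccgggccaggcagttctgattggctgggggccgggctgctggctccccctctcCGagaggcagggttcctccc
The Col5a1 stretch holds 17 CpGs, and its 18 compared cytosines were methylated at 0.256% in siCon and 0.101% in siH19. The Col11a2 stretch holds 9 CpGs, and its 14 compared cytosines were methylated at 68.6% and 73.3%. CpG-rich sequence was thus found near-unmethylated at the start of one fibrillar collagen and mostly methylated upstream of another. The Col8a2 stretch, with 10 CpGs, lay between them at 40.2% in siCon and 39.4% in siH19 over 18 cytosines, and the Col2a1 stretch was at 25.7% and 29.4% over 11.

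Of the 42 TSS windows, 27 had at least 5 compared cytosines and were tested. A further 6 had 1 to 4 cytosines (Col1a1, Col9a1, Col11a1, Col24a1, Col6a4 and Col6a6). The other 9 had none (Col3a1, Col6a1, Col6a3, Col10a1, Col17a1, Col20a1, Col22a1, Col25a1 and Col28a1), so the starts of several major connective tissue collagens were not sampled. In the tested windows the share of CpGs compared ran from 9.21% to 49.6%, with a median of 25.5%. Levels below give every cytosine the same weight in both libraries, and intervals are 95% intervals of counting error alone: the reads had no molecular identifiers to mark copies of a molecule, and neighbouring cytosines often sit on the same reads.

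The median level of collagen starts lay above that of all genes, as a description without a test. The median level of the 27 windows was 11% in siCon and 9.24% in siH19, against 1.84% and 1.92% over the windows of 13127 genes. With restriction-site cytosines kept, the siCon medians were 23.9% over 31 collagen windows and 16.2% over 14348 windows of all genes. Only 12 of 27 (44.4%) were under 10% in siCon, against 72.8% of all windows tested. The collagen windows were also poorer in CpGs, with a median observed to expected CpG ratio of 0.487 against 0.622. Across the 27 windows, whose points share libraries and in 2 cases the same cytosines, the correlation of the siCon level with that ratio was -0.23, against -0.43 across all windows. These are descriptions, and whether base composition accounts for the higher levels was not tested.

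**Figure D1:**
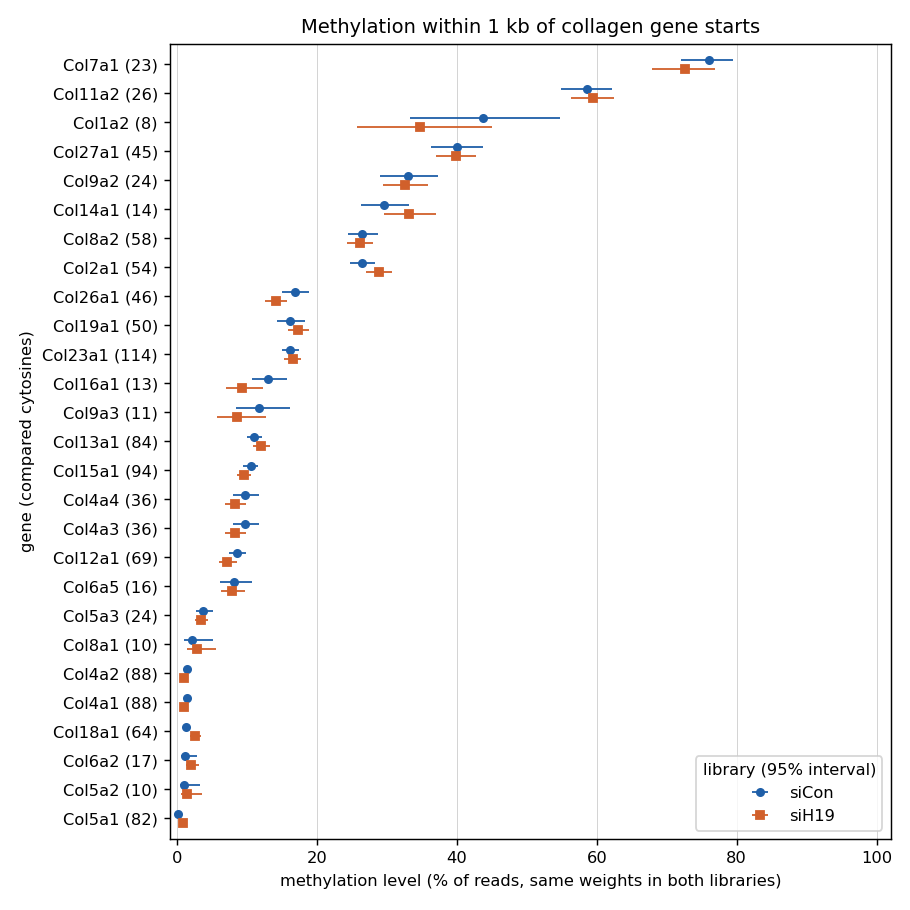
Methylation level (percent) of the 27 tested collagen TSS windows in siCon (circles) and siH19 (squares), with 95% counting intervals; the number of compared cytosines follows each gene name. Levels run from 0.111% at Col5a1 to 76.0% at Col7a1 in siCon, and the 2 libraries lie close together at each gene.

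Several collagens of muscle connective tissue and basement membranes had windows with little methylation. Col5a1, a fibrillar chain that helps set fibril diameter, was at 0.111% (interval 0.0381 to 0.324%) in siCon and 0.739% (0.507 to 1.08%) in siH19 over 82 cytosines. Its partner chain gene Col5a2 was at 0.987% and 1.29% over 10 cytosines. Col6a2, a chain of the type VI filaments, was at 1.13% and 1.98% over 17 cytosines. Col18a1, the type XVIII multiplexin that yields endostatin, was at 1.24% (0.854 to 1.79%) and 2.52% (1.85 to 3.42%) over 64 cytosines. Col15a1, the other multiplexin, was higher, at 10.5% and 9.50% over 94 cytosines. A list of 12 muscle collagens (Col1a1, Col1a2, Col3a1, Col4a1, Col4a2, Col5a1, Col5a2, Col6a1, Col6a2, Col6a3, Col15a1 and Col18a1) was also drawn up with earlier results known. Its 8 tested windows, of which Col4a1 and Col4a2 are the same cytosines, had a median of 1.29% in siCon, against 16.1% for the other 19 tested windows. The highest of the 8 was Col1a2, at 43.7%. Col1a1, Col3a1, Col6a1 and Col6a3 are not in this median, because their windows were not tested. The compared CpG just before the Col1a1 start, described below, was methylated in most reads. The list does not hold every collagen tied to muscle. Col14a1, described below as a collagen of tendon and muscle connective tissue, was counted among the others, so these medians depend on the listing.

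Both chains of type I collagen, the main fibrillar collagen, were thinly sampled at their starts. The Col1a2 window was at 43.7% (33.3 to 54.7%) in siCon and 34.7% (25.7 to 45.1%) in siH19. However, its 8 cytosines lay 555 to 896 bases downstream of the TSS, in an intron and an exon. They carried only 88 and 101 reads summed over cytosines. At Col1a1, the CpG in capitals in the sequence above lies at -38 from the TSS. Its plus-strand cytosine was methylated in 13 of 15 reads in siCon (86.7%) and in 5 of 5 in siH19, and its minus-strand cytosine in 17 of 21 reads (81.0%) and in 4 of 5. The next compared CpG, 544 bases into the gene, was unmethylated in siCon in 9 and 10 reads on its strands, and methylated in 1 of 12 and 1 of 14 reads in siH19. The promoter-proximal CpG of Col1a1 was therefore methylated in most reads of both libraries, and the intronic one in few or none.

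Type IV collagen genes lie head to head in pairs, so that both chains of a network are read from one promoter region. The starts of Col4a1 and Col4a2 on chr8 are 21 bases apart and their windows hold the same 88 cytosines. These were at 1.34% (1.06 to 1.69%) in siCon and 0.951% (0.717 to 1.26%) in siH19, with 5667 and 5415 reads. The starts of Col4a3 and Col4a4 on chr1, whose chains form the network of the kidney filter, are 72 bases apart and share 36 cytosines. That region was more methylated, at 9.68% (8.01 to 11.7%) and 8.19% (6.79 to 9.85%). Toward Col4a3, the 500 bases downstream of its TSS were at 12.3% in siCon and 10.3% in siH19, and the 500 bases upstream, which run into Col4a4, at 6.13% and 5.45%. The 71 bases between the 2 starts hold 2 CpGs, in capitals here.
Col4a3/Col4a4, chr1:82586850-82586920, plus strand: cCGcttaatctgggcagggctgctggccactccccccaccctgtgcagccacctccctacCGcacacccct
Only 1 cytosine of this stretch was compared, at 19.2% of 26 reads in siCon and 8.33% of 12 reads in siH19. Because each pair shares its cytosines, the 27 tested windows are 25 distinct sets.

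The 2 most methylated windows belonged to collagens of skin and cartilage. Col7a1, which encodes the anchoring fibrils beneath the epidermis, was at 76.0% (72.0 to 79.5%) in siCon and 72.6% (67.9 to 76.8%) in siH19 over 23 cytosines. Its 16 cytosines in the 500 bases after the TSS were at 81.2% and 80.1%. The 3 compared cytosines before the TSS, in the sequence printed above, were at 50.6% in siCon and 29.9% in siH19. This was a difference of -20.7 points (-40.6 to -0.88), with 36 and 40 reads summed over the cytosines. Col11a2, a fibrillar chain of cartilage, was at 58.6% and 59.5% over 26 cytosines, with 65.8% and 67.3% over 18 cytosines more than 500 bases upstream and 35.4% and 34.8% over 6 in the 500 bases after the TSS. Its last 2 cytosines, farther downstream, were at 5.73% and 0%, and none was compared in the 500 bases before the TSS. Col27a1, another cartilage fibrillar collagen, was at 39.9% and 39.8% over 45 cytosines, with 46.5% and 45.2% in the 500 bases after its TSS but only 5.72% and 11.3% in the 500 before it. Col2a1, the main cartilage collagen, was at 26.4% and 28.8% over 54 cytosines. The start of Col8a2, a short-chain collagen of corneal basement membrane, was at 26.4% and 26.1% over 58 cytosines, and its partner Col8a1 at 2.13% and 2.81% over 10.

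The 6 tested FACIT windows lay between 8.46% and 32.9% in siCon. They were Col12a1 (8.46% in siCon and 7.10% in siH19), Col9a3 (11.7% and 8.53%), Col16a1 (13.0% and 9.24%), Col19a1 (16.1% and 17.2%), Col14a1 (29.6% and 33.1%) and Col9a2 (32.9% and 32.5%). The Col12a1 window was uneven, with 0.304% and 0.774% over 44 cytosines after the TSS and 72.4% and 62.7% over 6 cytosines more than 500 bases before it. The transmembrane collagens Col13a1 and Col23a1 were at 11% and 16.1% in siCon and at 12.0% and 16.5% in siH19. Of the remaining windows, Col26a1 was at 16.8% and 14.1%, Col6a5 at 8.04% and 7.75%, and Col5a3 at 3.67% and 3.32%.

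**Figure D2:**
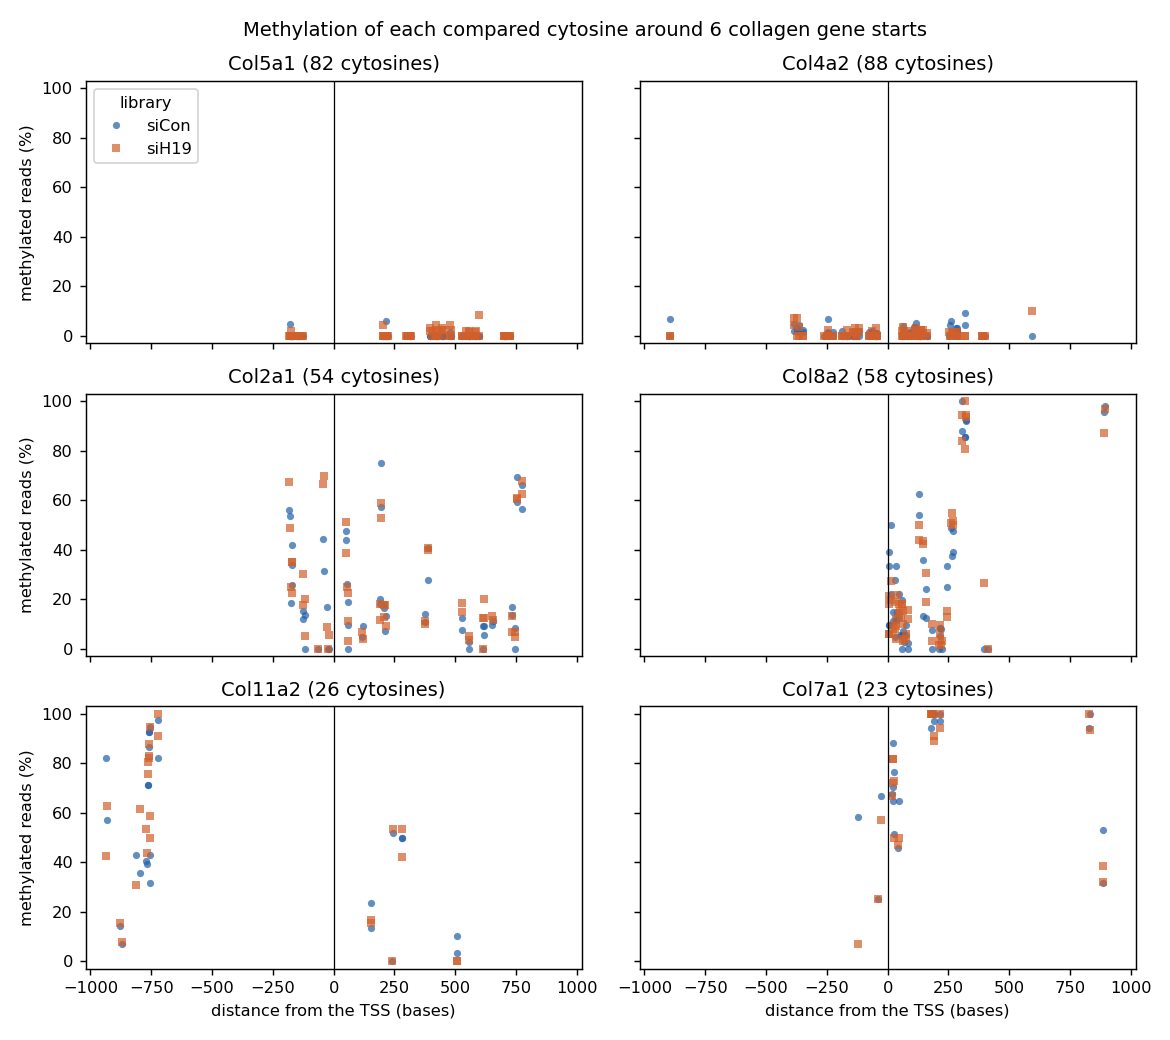
Percent of reads methylated at each compared cytosine of 6 collagen TSS windows, against distance from the TSS in bases on the strand of the gene, in siCon (circles) and siH19 (squares). Col5a1 and Col4a2 sit near 0 throughout, Col2a1 and Col8a2 are mixed over short distances, and Col11a2 and Col7a1 hold many highly methylated cytosines.

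Whether the collagen starts differed between the libraries was asked with a Cochran-Mantel-Haenszel chi-square test stratified by cytosine, adjusted by Benjamini-Hochberg over the 13127 windows tested. A window was called where the adjusted p was under 0.05 and the libraries lay 10 or more percentage points apart. No collagen window was called, where 0.213% of all windows were (28 of 13127). With no minimum difference, 2 of 27 had an adjusted p under 0.05, against 8.06% of all windows. At an unadjusted p under 0.05 there were 5 (18.5%), against 22.4%. In 26 of 27 windows the whole interval of the difference lay within 10 points of 0, and in 21 within 5 points; the exception at 10 points was Col1a2, at -9.0 points (-22.7 to 4.71). Of the 27 windows 11 were higher in siH19 and 16 lower, with a median difference of -0.36 points, against +0.08 over all windows. The median size of the difference was 0.961 points, against 0.524.

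Both windows with an adjusted p under 0.05 were low in methylation and slightly higher in siH19. Col5a1 was higher by 0.63 points (0.31 to 0.95, adjusted p = 0.0051 by the stratified chi-square test). Its 36 cytosines in the 500 bases after the TSS were at 0.180% in siCon and 1.38% in siH19, and the 18 before it at 0.256% and 0.101%. Every compared minus-strand cytosine from 397 to 483 bases after the TSS was at 2.17% to 4.44% in siH19, with 44 to 46 reads each. Such low levels at neighbours can come from a few reads that span them. The test takes each cytosine as separate, so shared reads can make p too small and intervals too narrow, at Col18a1 as well. How many molecules were methylated was not tested. Col18a1 was higher by 1.29 points (0.41 to 2.16, adjusted p = 0.0446 by the same chi-square test), with 3.20% and 5.85% over 11 cytosines in the first 500 bases after the TSS. Both windows remained under 3% methylated in each library.

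The largest differences among windows with at least 10 cytosines were all under 4 points, and none passed the adjusted threshold. Col16a1, a FACIT, was lower in siH19 by 3.74 points (p = 0.0466, adjusted p = 0.215 by the stratified chi-square test). Col14a1, a FACIT of tendon and muscle connective tissue, was higher by 3.55 points (adjusted chi-square p = 0.422), with 32.4% and 32.3% over 8 cytosines before the TSS, 26.1% and 47.4% over 2 in the 500 bases after it and 25.3% and 27.8% over 4 farther on. Col7a1 was lower by 3.40 points (adjusted chi-square p = 0.432), and Col9a3, a chain of cartilage type IX collagen, by 3.18 (adjusted p = 0.496). Col26a1 was lower by 2.76 points (chi-square p = 0.0183, adjusted p = 0.127), and Col2a1 higher by 2.35 (p = 0.0467, adjusted p = 0.215). The shared Col4a1 and Col4a2 window differed by -0.39 points (-0.80 to 0.02), and that of Col4a3 and Col4a4 by -1.48 (-3.74 to 0.78).

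**Figure D3:**
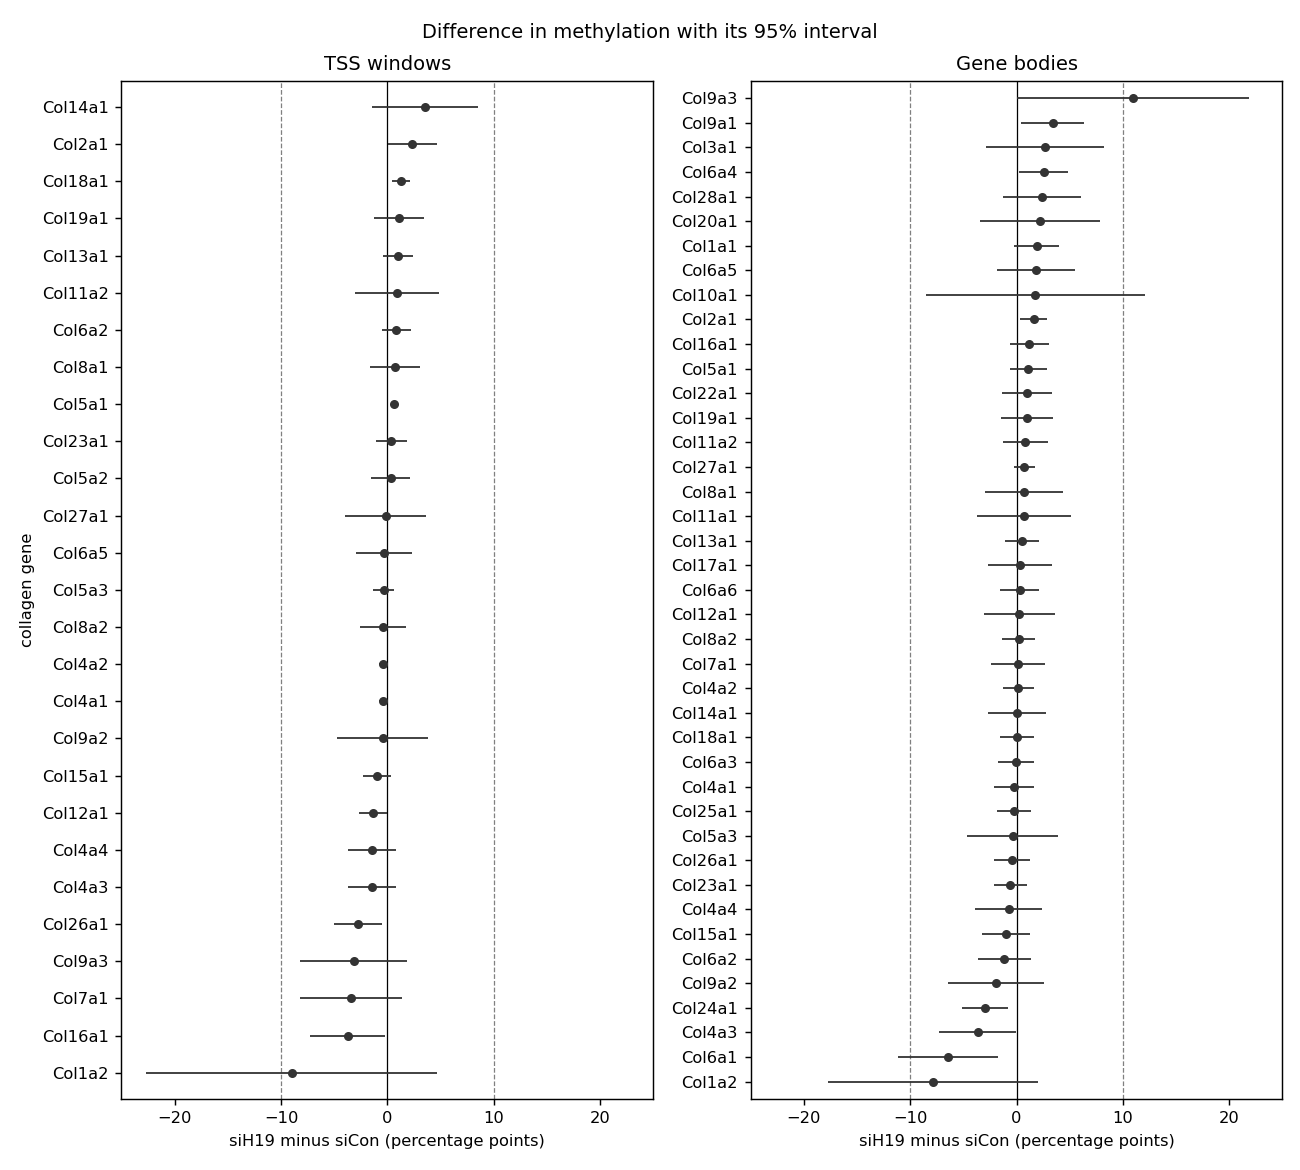
Difference in methylation, siH19 minus siCon in percentage points, with its 95% counting interval, for the 27 tested TSS windows (left) and the 41 tested bodies (right) of collagen genes; dashed lines mark 10 points either way. Nearly all intervals stay inside the dashed lines, and Col9a3 is the only body whose estimate lies beyond them.

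CpG islands of the collagen genes were also compared as units. Of 44 distinct islands with at least 5 compared cytosines 19 were higher in siH19 and 25 lower, and 5 had an unadjusted p under 0.05, of which 4 were higher. Islands of other genes were not compared, so no background share stands beside this count. The higher ones included the islands at or near the starts of Col2a1, Col5a1 and Col18a1, which share cytosines with the tested windows. The lower one of the 5 was an exonic island of Col11a2 (chr17:34064069-34064268), at 41.0% and 32.5% over 12 cytosines, a difference of -8.57 points (-15.4 to -1.72). The island at the start of Col2a1 reaches past the window. Over 74 cytosines of this island (chr15:98002880-98004915) siCon was at 19.4% and siH19 at 22.2%, higher by 2.79 points (1.15 to 4.43). The 16 cytosines in the 500 bases before the TSS were at 24.9% and 31.5%, those in the 500 bases after it at 24.3% and 23.5%. The difference was thus uneven along the island.

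The bodies were sampled in nearly all members. Of 42 bodies 41 were tested, and Col5a2 had only 2 compared cytosines. The share of CpGs compared was small, with a median of 3.52% and a range from 1.22% to 17.5%, so a body level describes the CpG-rich parts that the restriction fragments cover. The median level was 50.8% in siCon and 52.7% in siH19, against 59.5% and 59.7% over 13571 bodies. The window was less methylated than the body in 23 of the 26 genes with both tested, against 89.3% of 10362 genes. The exceptions were Col7a1, Col11a2 and Col27a1.

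Of the 11 tested bodies of the muscle collagens, 9 lay above the median of the tested collagen bodies in siCon, and Col6a1 and Col3a1 lay below it. Col4a1 was at 84.2% (82.6 to 85.6%) in siCon and 83.9% in siH19 over 116 cytosines, and Col4a2 at 77.5% and 77.7% over 138. Col6a3, the longest chain of type VI collagen, was at 82.5% and 82.4% over 96 cytosines, Col6a2 at 70.8% and 69.6% over 74, and Col6a1 at 46.8% and 40.4% over 23. Col5a1 was at 82.1% and 83.2% over 109 cytosines, Col18a1 at 79.5% and 79.6% over 147, and Col15a1 at 58.1% and 57.1% over 54. Of the type I genes, Col1a1 was at 54.2% and 56.1% over 82 cytosines and Col1a2 at 89.5% and 81.6% over only 7. Col3a1, the fibrillar partner of type I in soft tissue, was at 48.7% and 51.4% over 10. These 11 had a median of 77.5% in siCon and the other 30 bodies a median of 43.9%, the reverse of the order at the starts, as a description without a test. Both medians depend on which genes were listed, and Col14a1 was again among the others. The Col4a3 body was at 56.6% and 53.0% over 53 cytosines, and the Col4a4 body at 46.2% and 45.4% over 44.

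The least methylated bodies were those of Col9a1 (20.8% in siCon and 24.2% in siH19), Col11a1 (22.3% and 23.0%), Col9a3 (25.1% and 36.1%, over 6 cytosines) and Col20a1 (27.3% and 29.6%). In the Col11a1 body no island cytosine was compared, and its 17 compared cytosines all lay outside islands. In some other bodies of lower methylation, not among these least methylated ones, low levels lay in CpG islands that extend beyond the window. In Col27a1, with 245 compared cytosines the most of any body, 100 cytosines in islands were at 6.77% in siCon and 7.76% in siH19, and the 145 outside islands at 55.9% and 56.4%. In Col2a1, 55 island cytosines were at 12.3% and 14%, and 70 outside islands at 68.1% and 69.5%. An island within a body was not always unmethylated, since 12 cytosines of an exonic island of Col4a2 (chr8:11445970-11446245) were at 98.9% and 97.2%.

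**Figure D4:**
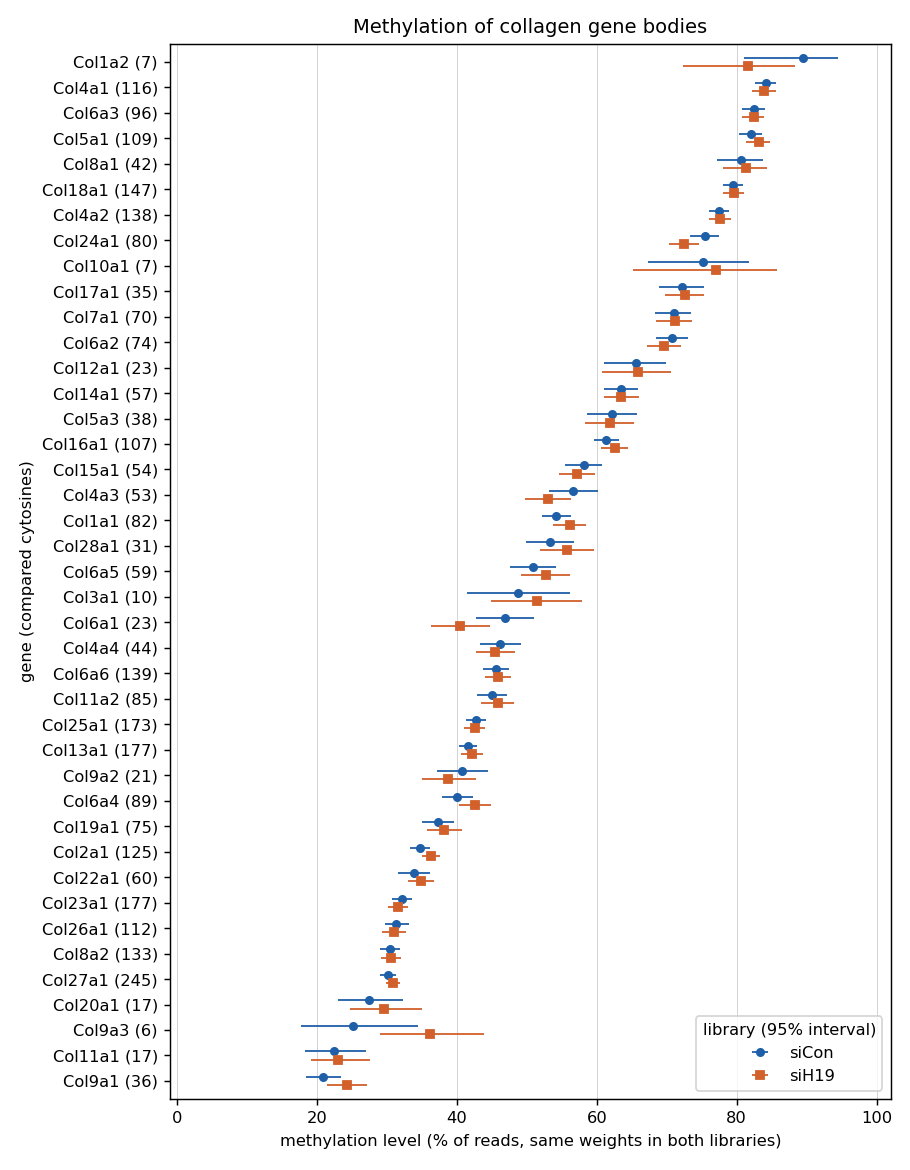
Methylation level (percent) of the 41 tested collagen gene bodies in siCon (circles) and siH19 (squares), with 95% counting intervals; the number of compared cytosines follows each gene name. Levels run from 20.8% at Col9a1 to 89.5% at Col1a2 in siCon.

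No collagen body was called by the same test and thresholds, where 0.162% of all bodies were (22 of 13571). None had an adjusted p under 0.05 with no minimum difference, against 1.11% of all bodies. At an unadjusted p under 0.05 there were 5 (12.2%), against 13.0%. In siH19 27 bodies were higher and 14 lower, with a median difference of +0.29 points, against +0.18 over all bodies, where 54.5% were higher. In 37 of 41 bodies the interval lay within 10 points of 0, and in 28 within 5. The share of bodies that were higher was 65.9%, and the median size of the difference was 0.972 points, against 1.33 over all bodies.

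Among bodies with at least 10 cytosines, Col6a1, which encodes a chain of type VI collagen, differed most, by -6.43 points (-11.1 to -1.71, p = 0.0112, adjusted p = 0.204 by the stratified chi-square test). Its 19 exon cytosines were at 50.1% in siCon and 43.3% in siH19, and with reads summed over cytosines the body differed by +0.26 points instead. Col4a3 differed by -3.66 points (adjusted chi-square p = 0.413), Col9a1, of cartilage type IX collagen, by +3.39 (adjusted p = 0.331) and Col24a1, a minor fibrillar chain, by -2.96 (p = 0.0104, adjusted p = 0.195). Col3a1 differed by +2.64 points (adjusted chi-square p = 0.764) and Col6a4 by +2.54 (adjusted p = 0.346). The larger estimates of Col9a3 (+10.9 points, 0.07 to 21.8) and Col1a2 (-7.88, -17.8 to 2.00) rested on 6 and 7 cytosines. Summing reads over cytosines, which lets deep cytosines set the level, called Col17a1 at -11.5 points and Col28a1 at -10.9, where the stratified differences were +0.37 and +2.42.

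Exons were more methylated than introns in most collagen bodies, with island cytosines included. Of 35 genes with at least 5 compared cytosines in the exons and in the introns of the body, 27 (77.1%) had the higher level in exons in siCon, against 64.3% of 6738 genes. The median was 70.1% in exons and 42.3% in introns, and in siH19 69.8% and 43.3%. The gap was widest at Col12a1 (95.5% over 14 exon cytosines and 22.5% over 9 intron cytosines in siCon) and Col3a1 (89.9% and 28.7%, over 5 each). It was reversed most at Col27a1 (15.9% and 40.3%), where many exon cytosines lie in the weakly methylated start island, and at Col4a4 (29.7% and 51.3%). Outside islands, Col27a1 was at 53.8% in exons and 56.5% in introns in siCon. There Col8a2 (46.6% and 68.5%) and Col6a2 (27.7% and 75.3%, over 8 and 12 cytosines) were lower in exons. Col2a1 (83.4% and 66.0%) and Col11a2 (55.4% and 42.3%) were higher in exons. The count of 27 was not repeated outside islands.

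**Figure D5:**
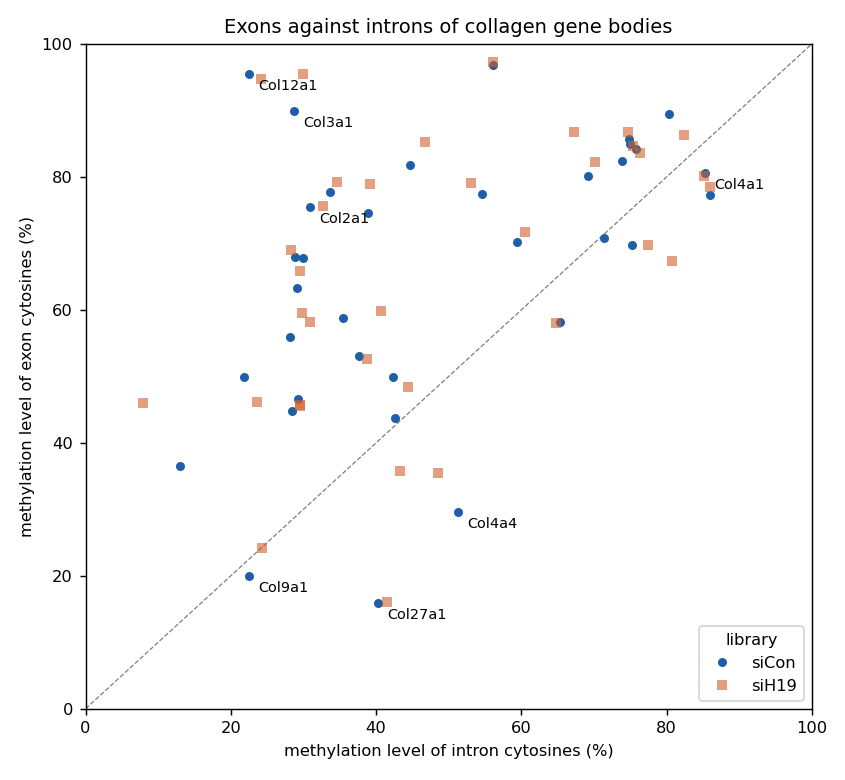
Methylation level (percent) of exon cytosines against intron cytosines in the bodies of 35 collagen genes, in siCon (circles) and siH19 (squares); the dashed line marks equal levels and 7 genes are named beside their siCon points. With island cytosines included, 27 genes lie above the line in siCon, and Col27a1 and Col4a4 lie farthest below it.

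Individual cytosines were compared by Fisher's exact test, two-sided. A cytosine counted as strongly changed where the unadjusted p was under 0.05 and its levels lay 33 or more points apart. Of the 4288 collagen cytosines 44 were (1.03%), against 0.767% of 1336776 cytosines in all autosomal protein-coding genes. The order of these shares depended on the processing: with the strands of a CpG summed it turned, at 10 sites (0.399%) against 0.545%, with restriction-site cytosines kept the count was 108 (1.25%) against 1.22%, and at a minimum of 20 reads it was 12 (0.645%) against 0.214%. They were split evenly, 22 higher and 22 lower in siH19, and 13 lay in TSS windows. No collagen cytosine had an adjusted p under 0.05 over all compared cytosines of the genome. Collagen cytosines were more often at intermediate levels, with 32.9% of them between 20% and 80% in siCon against 19.9% over all genes, and the part of this in the higher share of strong changes was not tested. Levels of the 2 libraries correlated across the collagen cytosines with r = 0.95, as a description over cytosines that share reads.

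The 44 cytosines lay in 25 genes, 28 in introns, 13 in exons and 3 upstream. Col2a1, Col19a1, Col23a1 and Col27a1 held 4 each. Only Col2a1 among these had them all in one direction, higher in siH19, with 3 of them in its start island, while the others had 1 higher and 3 lower. Of the 44, 30 had at least 10 reads in each library and 12 at least 20. The partner cytosine on the opposite strand of the same CpG was compared for 36. It moved the same way in 20 of them and was itself strongly changed in 4, which are both strands of 2 CpGs.

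The sequences around those 2 CpGs, the only sites where both strands changed strongly, are given on the plus strand with the CpG in capitals.
Col2a1, chr15:98002998-98003059: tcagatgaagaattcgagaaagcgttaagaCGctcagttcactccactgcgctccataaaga
Col9a1, chr1:24246691-24246752: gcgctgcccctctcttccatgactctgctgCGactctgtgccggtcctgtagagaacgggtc
The Col2a1 CpG lies in an intron 1667 bases downstream of the TSS, inside the start island. Its plus-strand cytosine was methylated in 1 of 18 reads in siCon (5.56%) and in 18 of 40 in siH19 (45.0%, p = 0.0027 by Fisher's exact test), and its minus-strand cytosine in 2 of 12 (16.7%) and 20 of 36 (55.6%, p = 0.0235 by the same exact test). The Col9a1 CpG lies in an intron and was read only 5 times per strand in siCon. Its cytosines were methylated in 0 of 5 and 0 of 5 reads in siCon, each of which allows up to 43.4% by the Wilson interval, and in 10 of 15 (66.7%) and 13 of 21 (61.9%) in siH19.

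The 3 strongly changed cytosines of lowest p in each direction are shown next, on the strand of the cytosine, with their CpG in capitals.
Col14a1, higher, chr15:55331708-55331769, plus strand: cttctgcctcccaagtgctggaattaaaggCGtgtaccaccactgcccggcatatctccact
Col2a1, higher, chr15:98004706-98004767, plus strand: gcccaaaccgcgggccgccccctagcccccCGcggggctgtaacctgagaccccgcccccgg
Col11a1, higher, chr3:114217082-114217111, plus strand: gctgcctggtatgaCGtattatcaggaagt
Col11a2, lower, chr17:34038473-34038534, plus strand: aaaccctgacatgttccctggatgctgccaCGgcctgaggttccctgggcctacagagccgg
Col15a1, lower, chr4:47208301-47208330, minus strand: ctgtacttcgcccgCGgaacaaaggctgcg
Col26a1, lower, chr5:136765681-136765742, plus strand: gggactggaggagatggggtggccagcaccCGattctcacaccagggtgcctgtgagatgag
The intronic Col14a1 cytosine, in a repeat, was methylated in 8 of 32 reads in siCon (25%) and in 29 of 38 in siH19 (76.3%, p = 3.1e-05 by Fisher's exact test, adjusted p = 0.163), while its partner on the other strand was at 55.0% and 51.2%. The Col2a1 cytosine, at -41 from the TSS, was at 31.4% of 35 reads and 69.6% of 69. Plus-strand cytosines near it, at -64 and -21, had only 18 reads in siCon and 35 in siH19, while those at -43 and -26 had 36 and 69. Whether molecules were counted more than once at -41 was not tested. Its place among the lowest p rests on the counts as given, and counting a molecule more than once would make that p too small. The exonic Col11a1 cytosine was at 5.71% of 35 reads and 39.1% of 46, and its partner at 40.9% and 31.4%. These 2 partners moved against the listed cytosine.

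The Col11a2 cytosine, also in a repeat and at -934 from the TSS, was at 82.4% of 34 reads in siCon and 42.4% of 66 in siH19. Its partner was at 57.1% and 62.7%. The Col15a1 cytosine in the first exon was at 35.7% of 28 reads and at 0 of 26, which allows a share of up to 12.9% in siH19 by the Wilson interval, and its partner was at 11.5% and 7.50%. The intronic Col26a1 cytosine was at 46.9% of 32 reads and 7.69% of 26, with its partner at 16.7% and 0% of 12 and 7 reads. In these 3 the partner moved the same way at Col15a1 and Col26a1 only. The lowest adjusted p of any collagen cytosine, 0.0537 by Fisher's exact test, belonged to another intronic cytosine of Col26a1 (chr5, position 136745538), at 31.6% of 76 reads and 7.45% of 161, a fall under the 33-point limit, with its partner at 9.52% and 12.9%.

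Genes that make, bind or cut collagen were read beside the collagens, as a list of 42 genes: 30 of biosynthesis, 7 receptors and 5 collagenases. Their starts were less methylated, with a median of 3.28% in siCon over the 35 tested windows. None of the 35 windows and none of the 38 tested bodies was called. With no minimum difference 6 windows (17.1%) had an adjusted p under 0.05, against 8.06% of all windows. Named after their values were seen, these were the lysyl hydroxylase gene Plod3 (0.392% and 1.23%), the prolyl hydroxylase subunit genes P4ha3 (4.86%, and 0 of 164 reads, which allows up to 2.44%) and P4hb (1.45% and 0.748%), the cross-linking enzyme gene Loxl1 (20.4% and 27.0%), the collagen receptor gene Itga1 (9.02% and 3.87%) and the gelatinase gene Mmp2 (14.2% and 10.3%). They were split by direction, 2 higher and 4 lower in siH19. The 1 body of 38 (2.63%, against 1.11% of all bodies) with an adjusted p under 0.05 was Serpinh1, which encodes the collagen chaperone HSP47, at 49.9% and 54.4% (adjusted p = 0.0494 by the stratified chi-square test).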

How the data were processed

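DNA of 1 siCon and 1 siH19 culture was digested with MspI and TaqαI, bisulfite-treated and sequenced. According to their methods, the authors used Bismark for alignment (non-directional, version not given in the sources used here) and trimmed filled-in bases; the submitters' processing notes name mm10 and bcl2fastq 1.8.4. Duplicate removal was not stated, and whether a molecule could be counted more than once at a cytosine was not tested. Depth could differ sharply between neighbours. On the plus strand of Col5a1, the cytosines at 526 and 544 bases from the TSS had 47 and 94 siCon reads. The deposited files gave methylated and total reads per CpG cytosine as text, and a score, the methylated fraction scaled to 1000, used here to check parsing (100% matched). Reads were raw, with no normalization between libraries. All 6041258 positions used fell on CpGs of GRCm38; genes came from GENCODE.

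Levels weighted each cytosine by n1n2/(n1+n2). Windows and bodies with at least 5 cytosines were tested by the two-sided Cochran-Mantel-Haenszel test, with Mantel-Haenszel intervals of the difference and Wilson intervals of levels at 95%; cytosines by Fisher's exact test. Islands were 200 bp or longer, with 50% GC or more and a CpG observed/expected ratio from 0.6 up. Full values were given for muscle collagens, head-to-head pairs, the 6 largest differences per region type and the 3 lowest-p cytosines per direction. The members and lists were chosen with earlier results of these data known. Python 3.11.15, numpy 2.4.6, scipy 1.17.1 and pandas 2.3.3 were used, and the tests were checked on simulated data. The simulated reads were drawn independently for each cytosine. The check therefore did not cover reads shared between cytosines, copies of a molecule or differences between cultures. Alternatives varied depth, weighting, strand, region limits and thresholds.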

Additional observations from a re-analysis of the deposited data

How the results depend on the processing

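No collagen window was called under the alternatives tried except that 2 passed with no minimum difference, and no body except that 2 passed with reads summed over cytosines (1137 bodies of all genes did). The 32 differences of named genes passed the call in none of 397 recomputed values. Those values left out the alternatives with changed limits on the difference or on the number of cytosines. Among the 32, the windows of Col5a1 and Col18a1 passed with no minimum difference. Of the 32 differences 18 changed sign in some recomputed alternative, so those 18 directions depended on the processing. For the genes that make, bind or cut collagen, called windows numbered 2 at a limit of 5 points (5.71%, against 1.07% of all windows), 6 with no minimum difference and 1 on the minus strand alone (3.03%, against 0.566%). Called bodies numbered 8 with summed reads (21.1%, against 8.38% of all bodies), 1 with no minimum difference and 1 at a minimum of 20 reads (4.35%, against 0.383%).

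The median siCon level of collagen windows was 9.68% within 500 bases of the TSS, 9.07% on plus-strand and 12.2% on minus-strand cytosines, and 23.9% with restriction-site cytosines kept, where 31 windows were tested. That of bodies was 45.0% and 43.3% at minimums of 10 and 20 reads, 47.2% on the plus strand and 58.7% with restriction-site cytosines kept. Strongly changed collagen cytosines numbered 92 at 20 points (2.15%, against 1.52% of all), 13 at 50 points (0.303%, against 0.252%), 12 at a minimum of 20 reads, 108 with restriction-site cytosines kept and 10 with strands summed. The causes were not tested.

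No paired analysis was possible because each group held 1 library. Depth limited single cytosines, with a median of 23 reads, and the starts without compared cytosines.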

Other observations

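The type IV collagen genes Col4a5 and Col4a6 lie on the X chromosome and so were not among the 42 genes. They form another head-to-head pair of this family, with annotated starts 1309 bases apart. The Col4a5 window was at 9.12% in siCon and 6.58% in siH19 over 4 cytosines, and the Col4a6 window at 22.0% and 20.8% over 2. The Col4a5 body was at 47.6% and 48.3% over 35 cytosines, a difference of +0.71 points (-4.44 to 5.86), and the Col4a6 body at 35.5% and 37.7% over 29, a difference of +2.20 points (-1.49 to 5.89). These genes were chosen after the autosomal values were seen, and no test was run on them.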
